A study of Mus musculus with 2 samples.

Results

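The cytosolic phospholipase A2 group IV genes of the mouse are Pla2g4a, Pla2g4b, Pla2g4c, Pla2g4d, Pla2g4e and Pla2g4f. All 6 were found by their gene name among the 30139 genes on the arrays, with 1 probe and 1 spot each. The set was selected on the measured values themselves, that is, on the Pnpla1-/- against Pnpla1+/+ intensities of these arrays, so the values of the 6 genes are a description and carry no test. Total RNA was taken from the skin of newborn C57BL/6N mice at postnatal day 0, pooled from 6 animals per genotype, and each pool was hybridised with 1 dye (Cy3) to 1 Agilent mouse oligonucleotide array. Pnpla1+/+ mice were the wild-type littermates. Pnpla1-/- mice lacked Pnpla1 in the whole body, through a tm1a knockout-first allele whose LacZ and Neo cassette had been removed with flippase. With 1 array per genotype there is no replicate and no error between animals, and every difference below compares the 2 pools.

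Group IV enzymes are cytosolic lipases that act at membranes, where they cleave the fatty acid from the middle position of a glycerophospholipid. The fatty acid released by the alpha enzyme, encoded by Pla2g4a, is typically arachidonic acid, which cyclooxygenases and lipoxygenases turn into prostanoids and leukotrienes, while the remaining lysophospholipid can be reacylated or hydrolysed further. Most members bind membranes through a calcium-binding C2 domain, which the gamma enzyme, encoded by Pla2g4c, lacks, and Pla2g4e encodes an enzyme known as a calcium-dependent N-acyltransferase that makes precursors of N-acylethanolamines. Pnpla1 itself belongs to the patatin-like phospholipase family and is required in keratinocytes for the omega-O-acylceramides of the skin barrier.

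Of the 6 genes, 4 lie on chromosome 2, Pla2g4b apart from a run of Pla2g4e, Pla2g4d and Pla2g4f that are neighbours on the same strand. The sequences upstream of these 3 starts are shown because the 3 genes adjoin one another and include the 2 members past 2-fold. Each is the 250 bases before the annotated start in RefSeq (GRCm38.p6, minus strand), at chr2:120289070-120289319 for Pla2g4d, chr2:120245336-120245585 for Pla2g4e and chr2:120314166-120314415 for Pla2g4f. Capitals mark matches, on either strand, to any of 5 motifs, namely AP-1 (TGANTCA), the nuclear receptor core site (AGGTCA), C/EBP (TTNNGNAA), STAT (TTCNNNGAA) and the TATA box (TATAAA).
Pla2g4d: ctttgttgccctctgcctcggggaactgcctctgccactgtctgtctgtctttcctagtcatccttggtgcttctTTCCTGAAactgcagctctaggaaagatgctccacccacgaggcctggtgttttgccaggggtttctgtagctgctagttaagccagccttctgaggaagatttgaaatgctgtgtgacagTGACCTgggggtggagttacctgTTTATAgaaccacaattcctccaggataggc
Pla2g4e: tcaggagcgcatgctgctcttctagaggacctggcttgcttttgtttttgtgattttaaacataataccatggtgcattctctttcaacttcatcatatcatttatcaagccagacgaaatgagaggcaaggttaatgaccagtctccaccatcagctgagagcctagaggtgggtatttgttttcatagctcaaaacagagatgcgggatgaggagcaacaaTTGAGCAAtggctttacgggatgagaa
Pla2g4f: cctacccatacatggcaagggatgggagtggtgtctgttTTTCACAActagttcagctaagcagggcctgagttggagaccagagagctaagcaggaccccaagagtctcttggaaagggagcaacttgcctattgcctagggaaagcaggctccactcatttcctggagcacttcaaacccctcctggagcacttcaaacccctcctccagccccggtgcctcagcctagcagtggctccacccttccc
The capitals in Pla2g4d are, from 5′ to 3′, a C/EBP match that begins at -175 from the start, a nuclear receptor core site at -54 and a TATA box at -31, all 3 on the opposite strand. Pla2g4e held a C/EBP match alone, at -27 on the strand shown, and Pla2g4f a C/EBP match alone, at -211 on the opposite strand, and no matches overlapped. C/EBP letters were therefore present in all 3 windows and were the only ones of the 5 motifs present in more than 1, but 36.8% of the 32851 RefSeq promoter windows held them as well. The nuclear receptor core site was in 14.0% of windows and the TATA box in 12.4%, while AP-1, in 6.75%, and STAT, in 7.02%, were not found in any of the 3. Windows were available for 5 of the 6 genes, all but Pla2g4b, and the share of all windows is counted over the same 250 bases before the start.

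The arrays carried 43020 spots other than controls, none of them saturated. The share well above background was 71.7% for Pnpla1+/+ skin and 73.3% for Pnpla1-/- skin. Intensities were divided by each array's 75th percentile, 2108 for Pnpla1+/+ and 1734 for Pnpla1-/-, before any log2 difference was taken. The targeted gene followed its label, since the Pnpla1 probe (chr17:29026908-29026967, mm9) read 579 ± 58.2 in Pnpla1+/+ skin against 114 ± 12.6 in Pnpla1-/- skin, or -2.07 on the log2 scale. It was still above background in Pnpla1-/- skin, and whether this probe lies in the part removed by the allele was not analysed here. Here and for the other genes, ± is the error that the scanner software gave for the spot, which covers the measurement of that spot and not the spread between animals. On a log2 difference this error was about 0.20 for the measured members, and 385 probes with at least 8 repeated spots gave a technical SD of 0.092.

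Pla2g4d, whose human counterpart was described from psoriatic epidermis, had the largest difference of the set. Its processed intensity was 149 ± 15.9 in Pnpla1+/+ and 6426 ± 643 in Pnpla1-/- skin. After scaling this was 52.3-fold higher, a log2 difference of 5.71, and 31 genes of the whole array had a larger one. Genes above background on 1 array alone are ranked at their bound, so more genes than counted may exceed a member. The wild-type signal was low yet well above background, for which the lowest accepted signal on that array was 23.9. The probe lies at chr2:120091617-120091676 (mm9, minus strand).

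Pla2g4e, the N-acyltransferase, read 485 ± 49.0 in Pnpla1+/+ and 7579 ± 758 in Pnpla1-/- skin at chr2:119992643-119992702 (mm9, minus strand). It was 19.0-fold higher, a log2 difference of 4.25, with 73 genes having a larger one. The difference of Pla2g4d was larger than that of Pla2g4e by 1.46 on the log2 scale, more than the scanner error of either, though no animal-to-animal error is known for it.

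Pla2g4f, which encodes the zeta enzyme, lay next to Pla2g4d on the chromosome and read 1602 ± 160 in Pnpla1+/+ and 2532 ± 253 in Pnpla1-/- skin (chr2:120126274-120126333, mm9, minus strand). The difference of 0.94 on the log2 scale, 1.92-fold, placed it just outside the 2-fold threshold used here, and 1642 genes had a larger one. The next member, past the threshold, was Pla2g4e, and no member lay between 1.92-fold and 19.0-fold.

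Pla2g4a and Pla2g4b had almost the same intensity in both pools. Pla2g4a, the alpha enzyme, read 2315 ± 232 in Pnpla1+/+ and 2356 ± 236 in Pnpla1-/- skin (chr1:151676814-151676873, mm9, minus strand). Pla2g4b, the beta enzyme, read 8406 ± 841 in Pnpla1+/+ and 8712 ± 871 in Pnpla1-/- skin (chr2:119868539-119868598, mm9, plus strand). Before scaling the ratios of Pnpla1-/- to Pnpla1+/+ were thus 1.02 and 1.04, within the scanner error. The scaled log2 differences were 0.31 and 0.33, beside an upper quartile of 0.32 over all genes, with 5712 and 5360 genes having a larger one. Centring on spike-in probes, which shifts all genes by the same amount, puts them at -0.12 and -0.098, so the sign depends on the reference chosen while their place among all genes does not.

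Pla2g4c was not measured. Its probe (chr7:13941578-13941637, mm9, plus strand) read 9.05 ± 6.72 in Pnpla1+/+ and 7.03 ± 5.93 in Pnpla1-/- skin, well above background on neither array, and no difference is given for it. The median of the 153 negative-control spots was 5.81 and 5.20 on the same arrays.

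**Figure D1:**
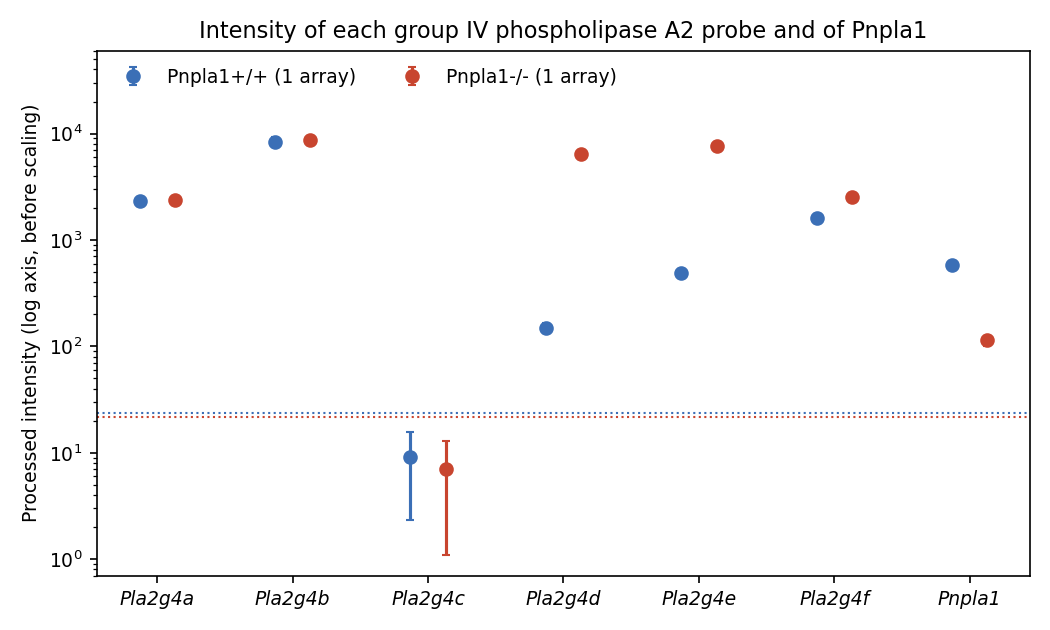
Processed intensity (log axis, before scaling) of the 1 probe of each group IV gene and of Pnpla1 on the Pnpla1+/+ array (blue) and the Pnpla1-/- array (red). Bars are the scanner software's error of the spot and are often smaller than the point. Dotted lines are the lowest signal called well above background on each array, 23.9 and 21.7. Pla2g4d and Pla2g4e are far apart between arrays, Pla2g4a and Pla2g4b overlap, and Pla2g4c lies under both lines.

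Altogether 5 of the 6 members had a difference, of which 2 were higher by 2-fold or more and 0 lower, with a median of 0.94. The background over 22374 genes was 6.70% for higher and 3.04% for lower by 2-fold or more, with a median of 0.0026. The members' count was fixed by how they were chosen and nothing is read from it. Of all genes past 2-fold, 68.8% were higher, a share that was 41.2% without scaling, 58.8% after quantile normalisation and 27.5% with spike-in centring. Without scaling the median of all genes moved to -0.28, and with spike-in centring to -0.43, since the 8 spike-in probes themselves read 0.43 higher on the Pnpla1-/- array after scaling. Relative to either median the member differences are as above, and both Pla2g4d and Pla2g4e stayed past 2-fold in every setting tried. In bulk skin RNA, more cells of a type and more RNA per cell cannot be told apart.

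**Figure D2:**
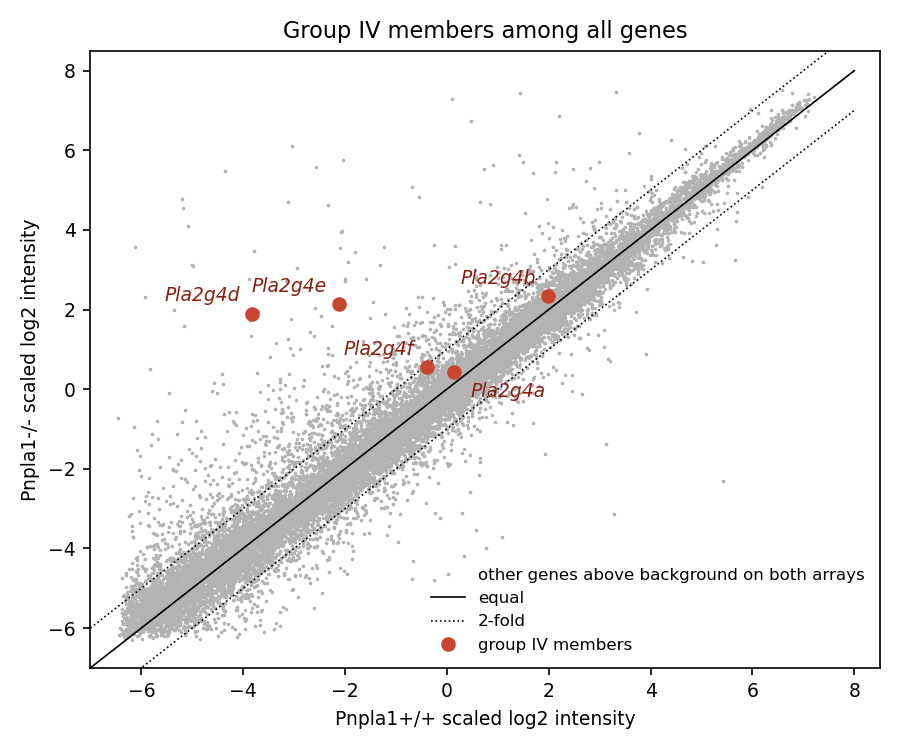
Scaled log2 intensity in Pnpla1-/- skin against Pnpla1+/+ skin for the genes well above background on both arrays (grey), with the 5 measured group IV genes in red. The solid line marks equal values and the dotted lines a 2-fold difference. Pla2g4d and Pla2g4e stand far above the upper dotted line, Pla2g4f lies just under it, and Pla2g4a and Pla2g4b lie near the line of equality.

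The genes nearest to Pla2g4d and Pla2g4e in their pair of scaled values, by distance on the log2 scale over the 2 arrays, were named by a fixed rule. For Pla2g4d they were Lpo, encoding lactoperoxidase, at a distance of 0.13 (161 in Pnpla1+/+, 6792 in Pnpla1-/-), Ear10, an eosinophil-associated ribonuclease, at 0.15 (144 and 5813) and the chemokine gene Ccl8 at 0.55 (146 and 4384). For Pla2g4e they were Tnfaip2, a gene induced by tumour necrosis factor, at 0.45 (381 and 6219), the odorant receptor gene Olfr1252 at 0.47 (352 and 7137) and Serpinb11, a serpin of the clade B, at 0.55 (440 and 5238). With only 2 arrays, such a likeness is no more than a similar low and high intensity.

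The members adjoin unrelated genes on chromosome 2, which were compared with them along that stretch. The 14 genes with a probe between the members or among the 6 on each side included 13 with a difference, with 1 higher and 1 lower by 2-fold or more and a median of 0.0073 on the log2 scale. The genes directly beside the run were Ehd4, an endocytic ATPase, at 0.60, and Vps39, a subunit of the HOPS tethering complex, at 0.0073. Sptbn5, a spectrin that lies between Pla2g4b and Ehd4, was at 0.70, and Jmjd7, which precedes Pla2g4b, was at -0.34.
Tyro3, a receptor tyrosine kinase, was the 1 neighbour past 2-fold upwards, at 1.02, and fell short of it under median scaling, no scaling, quantile normalisation and spike-in centring. The receptor tyrosine kinase gene Ltk was above background on the Pnpla1+/+ array alone, at 109, and was at least 4.13-fold lower, a call lost with normexp background correction and with the filter that needs both arrays. The others with a difference were Mga at -0.27, Capn3 at -0.18, Rpap1 at -0.17, Zfp106 at -0.092, Ganc at 0.020, Mapkbp1 at 0.19 and Tmem87a at 0.27, while 4931402G19Rik was above background on neither array. Leaving out Ltk, which has only a bound, the neighbours ran from -0.34 to 1.02. In the same annotation Pla2g4b overlaps Sptbn5 and the non-coding gene Gm28042, Pla2g4d overlaps the non-coding gene Gm52560, and Pla2g4e overlaps the pseudogene Gm52575. The share of their transcripts in the signal was not tested.

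**Figure D3:**
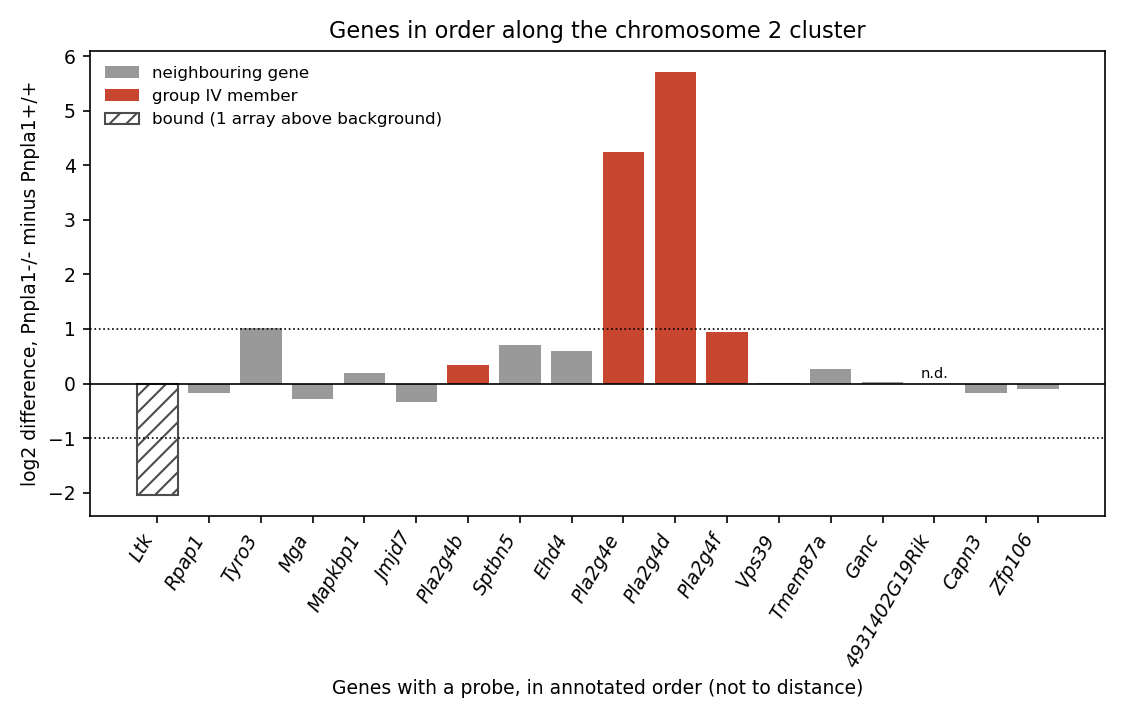
Scaled log2 difference, Pnpla1-/- minus Pnpla1+/+, of the group IV genes (red) and their neighbours (grey) in annotated order along chromosome 2, not drawn to distance. The hatched bar is a bound, dotted lines mark 2-fold, and n.d. marks a gene above background on neither array. Pla2g4e at 4.25 and Pla2g4d at 5.71 are far above the neighbours, which are drawn between -2.05, the bound, and 1.02.

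The Pla2g4b probe was the only one of the 6 that shared 15 bases with many other genes' start windows. The last 30 bases of its 60 are shown for that reason, with capitals marking the bases inside stretches of 15 that occurred in at least 10 RefSeq promoter windows.
Pla2g4b probe: ctggtggGATGGCTCAGCGGTTAAGAGtgc
The capitals cover 20 bases, and a stretch of 15 within the probe occurred in up to 14 of the 32851 windows. For this search the windows were of up to 300 bases and ran past the start. As many were found for 1.92% of the 39429 probes on the array, whereas the other 5 members had 0 or 1. The 676 such probes that were well above background on both arrays had a median log2 difference of 0.16, with quartiles of -0.071 and 0.36, against -0.011 over all 27095 probes of that kind. The Pla2g4b difference of 0.33 lay within those quartiles. Whether transcripts of other genes contributed to its signal was not tested.

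The rest of the phospholipid and eicosanoid pathway was followed in 9 lists of 91 genes, all with a probe. Of the 83 with a difference, 11 were higher and 2 lower by 2-fold or more, with a median log2 difference of 0.11. These counts turned with the scaling, to 8 higher and 3 lower without scaling and to 5 higher and 8 lower with spike-in centring. Over all genes, 6.70% were higher and 3.04% lower as reported. Those shares were 4.47% and 6.37% without scaling, and 3.73% and 9.82% with spike-in centring. No gene measured on both arrays was higher by as much as Pla2g4e, while Pla2g5 was lower by more. Like the members, these lists were drawn up with results of these arrays known.

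Among the other phospholipases A2, secreted enzymes lay on both sides of 0. Pla2g2d, an enzyme of lymphoid tissue, read 125 in Pnpla1+/+ and 364 in Pnpla1-/- skin, 1.82 on the log2 scale. Pla2g5 read 1764 and 62.5, a difference of -4.54, while its other probe was at -1.56. Pla2g3, a secreted enzyme known from the skin and the epididymis, was at -0.91 by its brightest probe and at -1.04, past 2-fold, by another. Pla2g2f, the enzyme of the suprabasal epidermis, was at -0.24. These were among 7 of 11 secreted enzymes with a difference, of which 1 was at least 2-fold higher and 1 lower, with a median of -0.051. They include Pla2g1b, for which there is only a bound, and over probes above background on both arrays the median was -0.14. None of the 13 calcium-independent and other enzymes, among them the patatin-like lipases apart from Pnpla1 and the platelet-activating factor acetylhydrolases, passed 2-fold in either direction. Their values ran from -0.25 (Pafah1b3) to 0.77 (Pnpla7) with a median of 0.17.

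Downstream of arachidonic acid, the inducible cyclooxygenase gene Ptgs2 read 54.2 in Pnpla1+/+ and 226 in Pnpla1-/- skin, 5.13-fold higher. Its Pnpla1+/+ signal was well above background but under the highest negative-control spot of that array, 73.9. The constitutive Ptgs1 was at 0.10 on the log2 scale. Hpgds, the haematopoietic prostaglandin D synthase, read 534 and 1139, a difference of 1.37. These were the 2 of 10 prostanoid enzymes past 2-fold (1 with spike-in centring, which takes Hpgds under it), and the median of the list was 0.068. Ptges, the inducible prostaglandin E synthase, was at 0.69 by its brighter probe and at 2.57 by its other, so its size depends on the probe. The degrading enzyme Hpgd was at -0.55.

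Of the lipoxygenase and leukotriene enzymes, 3 of 9 measured were at least 2-fold higher and 0 lower, with a median of 0.76. The higher count was 2 without scaling, and 2 with 1 lower under spike-in centring. Both the count and the median include Alox8, which was above background on the Pnpla1-/- array alone, and over probes above background on both arrays they were 2 and 0.34. Alox8, the 8-lipoxygenase of mouse epidermis, was below background in Pnpla1+/+ skin at 5.27 and read 257 in Pnpla1-/- skin, at least 13.1-fold higher. Alox5ap, encoding the protein that presents arachidonic acid to 5-lipoxygenase, read 2345 in Pnpla1+/+ and 7469 in Pnpla1-/- skin, 1.95 apart on the log2 scale. Alox5 itself read 484 and 960, a difference of 1.27. The barrier lipoxygenases differed less, with Alox12b at 0.76 and Aloxe3 at -0.088. Alox12, at -0.66 the lowest value of the list, and Alox12e, at -0.51, were lower in Pnpla1-/- skin.

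The receptors showed 4 of 11 at least 2-fold higher and 0 lower, with a median of 0.86. The higher count was 2 without scaling, 2 with normexp background correction and 1, with 1 lower, under spike-in centring. Ltb4r1, the high-affinity leukotriene B4 receptor of myeloid cells, read 1258 and 6368, 6.15-fold higher in Pnpla1-/- skin. Cysltr1, a cysteinyl leukotriene receptor, was at 1.36 on the log2 scale and the prostacyclin receptor Ptgir at 1.13, and the prostaglandin E receptor Ptger2 was 2.14-fold higher. This last gene read only 34.7 in Pnpla1+/+ skin, under the highest negative-control spot of that array, 73.9. Ptgfr, the prostaglandin F receptor, had the lowest value of the list at -0.61.

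The enzymes that handle the lysophospholipid product, those of N-acylethanolamines and the partners of the alpha enzyme had medians nearer to 0 than the receptors. Among 11 measured reacylation enzymes 0 were at least 2-fold higher and 1 lower, with a median of 0.20, and that 1 was the long-chain acyl-CoA synthetase Acsl6, which read 219 and 36.1, a difference of -2.32. The Pnpla1-/- signal of Acsl6 was under the highest negative-control spot of that array, 49.2. The highest of the reacylation enzymes was the acyltransferase gene Lpcat3 at 0.51. Among 7 lysophospholipid hydrolases the glycerophosphodiesterase Gdpd1 was the only one past 2-fold, reading 2288 and 4670 (0 past it with spike-in centring), and the median was 0.23, with Lyplal1 lowest at -0.40. The 6 enzymes of N-acylethanolamine metabolism, into which the product of Pla2g4e feeds, had none past 2-fold and a median of 0.090. Napepld, the phospholipase D that acts on that product, was at -0.083, and the values of the list ran from -0.55 for the N-acyltransferase gene Plaat5 to 0.84 for the hydrolase gene Faah. The 9 kinases and binding partners of the alpha enzyme also had none past 2-fold, with a median of 0.078 and values from -0.71 (S100a10, partner of annexin A2) to 0.54 (Camk2d, whose probes reached 1.71).
No scaling and spike-in centring shift all measured differences alike, by the -0.28 and -0.43 given above, and positive list medians smaller than that turn negative with them. List medians are therefore to be read against the median of all genes.

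**Figure D4:**
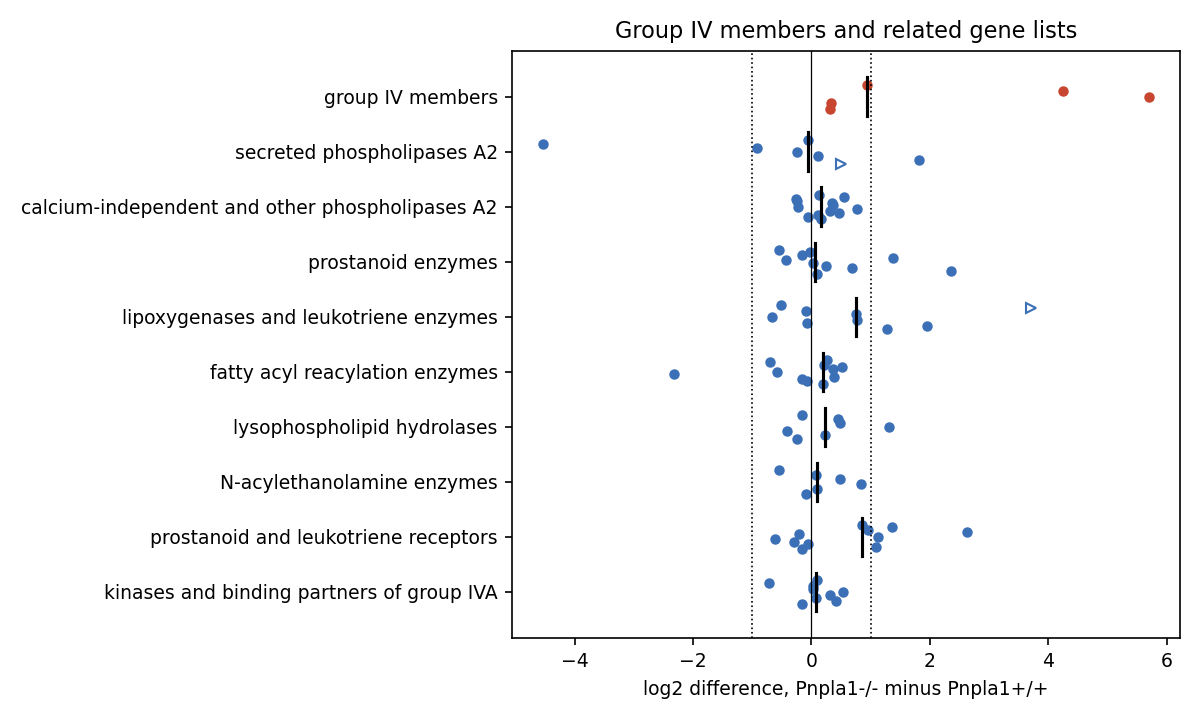
Scaled log2 difference, Pnpla1-/- minus Pnpla1+/+, of each measured gene (points) in the group IV set (red) and the 9 related lists (blue). Open triangles are bounds, black bars the median of each list and dotted lines 2-fold. Pla2g4d and Pla2g4e lie to the right of the points of the other lists, of which the highest is Alox8, a lower bound drawn at 3.71.

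Cell markers were read beside these values. The tissue carried its defining keratinocyte markers on both arrays, with all 5 basal and all 5 suprabasal genes measured. The scaled signals of the basal list summed to 188 in Pnpla1+/+ and 219 in Pnpla1-/- skin, Krt5 being the brightest, with 1 gene at least 2-fold higher (Krt14, 1.35) and 1 lower (Krt15, -1.67). The suprabasal list summed to 385 and 384, Krt10 being the brightest, with 1 gene at least 2-fold lower (Flg2, -6.41) and 0 higher. Such sums add the levels of different probes and follow the brightest keratins, so they are no measure of the share of keratinocytes and do not show the loss of Flg2 signal. The medians of these lists were 0.16 and 0.10. Krt14 is under 2-fold with spike-in centring, while Flg2 differed by more than Pla2g4d, in the opposite direction. The part of keratinocyte composition in the group IV values was not tested.
Of 8 leukocyte markers, all above background, 2 were at least 2-fold higher and 0 lower, namely Ptprc, the pan-leukocyte CD45 gene, at 1.51 and the macrophage gene Adgre1 at 1.24. Without scaling, and with spike-in centring, 1 passed, and with the mean over probes 3. The median of the list was 0.27, 0.59 with the mean over probes, -0.0092 without scaling and -0.16 with spike-in centring. Its scaled signals summed to 78.2 in Pnpla1+/+ and 74.1 in Pnpla1-/- skin. That sum adds the levels of different probes and rests on its brightest genes, Csf3r, at 0.044, and Cpa3, so it is no measure of leukocyte content. As reported 6 of the 8 genes were above 0, a count that depends on the scaling. Itgam was at -0.026 by its brightest probe, with another probe at 2.84. Cpa3, a mast cell gene, was at -0.52. The part of leukocytes in the values of the group IV genes was not tested.
Fibroblast, adipocyte, muscle and endothelial markers had 0 genes past 2-fold in either direction. Their medians were 0.013, 0.057, 0.058 and 0.35. The fibroblast list had 1 gene, Dpt at -0.91, at least 2-fold lower without scaling or with spike-in centring. The adipocyte marker Lep was above background on neither array. The pools also differed in sex-linked transcripts, with Xist at 1.12 and 2 transcripts of the Y chromosome, Ddx3y and Eif2s3y, each at -2.19. The part of this difference between the pools in the group IV values was not tested.

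The 5 measured members kept the order Pla2g4d, Pla2g4e, Pla2g4f, Pla2g4b, Pla2g4a under each setting except quantile normalisation, in which Pla2g4a stood above Pla2g4b. Pla2g4d ranged from 5.23 to 5.71 on the log2 scale and Pla2g4e from 3.82 to 4.25. Pla2g4f ranged from 0.51 to 0.94 and did not reach 2-fold in any of them.

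**Figure D5:**
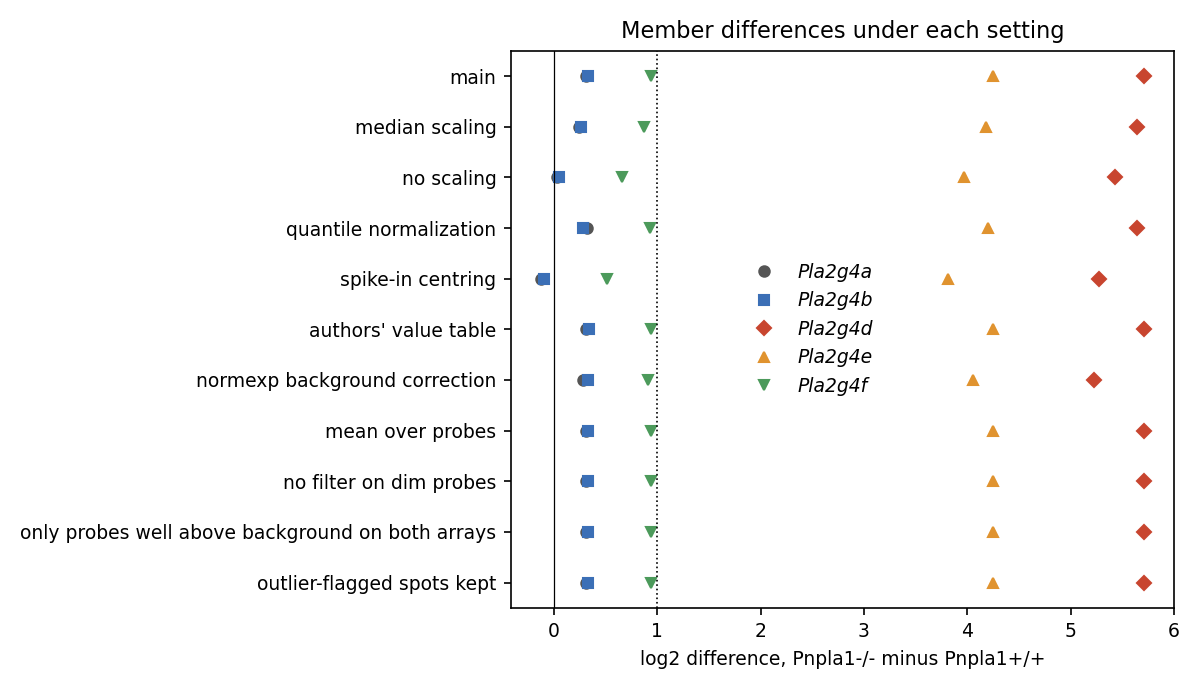
Log2 difference, Pnpla1-/- minus Pnpla1+/+, of the 5 measured group IV genes (symbols) as reported (main) and under 10 other ways of processing the intensities. The dotted line marks 2-fold. Pla2g4d and Pla2g4e stay to its right throughout, Pla2g4f stays to its left, and Pla2g4a and Pla2g4b pass 0 with spike-in centring.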

How the data were processed

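RNA of 2 pools, each of 6 newborn mice, was measured on 2 one-colour arrays of the same slide. The authors processed the scanned arrays with Agilent Feature Extraction 11.5.1.1, per the labels' processing notes and the file headers. For each spot they deposited a processed intensity after background subtraction, its error and quality flags. They also deposited a table of ratios of this intensity to 1 factor per array (2109 and 1734), used as an alternative. Values were computed with Python 3.11.15, numpy 2.4.6, pandas 2.3.3 and, for normexp and quantile normalisation, limma 3.58.1 in R 4.3.3.

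The log2 processed intensity minus that of the array's 75th percentile over non-control spots was used. Spots with an outlier flag (138 of the wild type, 82 of the knockout) were left out, which left 30133 genes. Repeated spots were averaged, and a gene was taken at its brightest probe. Where 1 array alone was above background, the dimmer side was set to the larger of the probe's signal and that array's lowest accepted signal, which gives a bound. Of 39429 probes, 27508 matched by accession, 3544 by current symbol and 404 by a former one in a RefSeq gene table (GRCm38.p6), which also gave gene order, and 7973 kept the file's name. Coordinates of probes are those of the deposited files (mm9).

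With 1 array per genotype no test was run. Precision is limited by the number of arrays. The members, lists, named-gene rule and the 2-fold threshold were chosen with earlier results of these data known. Named genes were all members and their neighbours, and of the pathway lists the genes past 2-fold and the highest and lowest, with the 3 genes nearest to each member past 2-fold, and a few further list genes were named after their values were seen. The computation was tested on simulated data with known changes, put only into bright genes well above background on both arrays. Changes in dimmer genes, and bounds, were not simulated.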

Additional observations from a re-analysis of the deposited data

How the results depend on the processing

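Of 12 alternatives, those that moved a member's log2 difference by more than the technical SD were no scaling, spike-in centring and, for Pla2g4d and Pla2g4e, normexp background correction with an offset of 50. Without scaling the differences were 0.025 for Pla2g4a, 0.052 for Pla2g4b, 5.43 for Pla2g4d, 3.97 for Pla2g4e and 0.66 for Pla2g4f, which was also the median of the members. With spike-in centring they were -0.12, -0.098, 5.28, 3.82 and 0.51, with a median of 0.51. With normexp, Pla2g4d was at 5.23 and Pla2g4e at 4.06. With no filter on dim probes, which adds Pla2g4c, the members' median was 0.64. At 1.5-fold 3 members were higher, and 2 under each other alternative. Among the 14 neighbouring genes, the number at least 2-fold higher was 0 under median scaling, no scaling, quantile normalisation, spike-in centring and a 3-fold threshold, and 3 at 1.5-fold, while the number lower was 0 with normexp and with the strict background filter, which needs both arrays. The neighbours' median was -0.27 without scaling and -0.42 with spike-in centring. With spike-in centring 3 reacylation enzymes, 2 secreted phospholipases A2 and 1 partner of the alpha enzyme were at least 2-fold lower. Genes at least 2-fold higher and lower over the whole array numbered 1499 and 681 as reported, 998 and 1424 without scaling, 827 and 2178 with spike-in centring, 960 and 321 with normexp, and, over 30133 genes, 3041 higher (10.1%) and 3.67% lower with no filter on dim probes.

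No paired analysis was possible because each genotype has 1 array. For the same reason no array was left out and no slide term was fitted. Pla2g4c, under background on both arrays, is the member that signal limits.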
